A study of Mus musculus with 2 samples.

Results

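YAP and TAZ, the transcriptional coactivators of the Hippo pathway, were followed together with a DNA-binding partner and a set of target and feedback genes in organoids grown from mouse pituitary. The members are the 10 genes whose names in the deposited table equal Yap1, Wwtr1 (which encodes TAZ), Tead1, Ctgf, Cyr61, Ankrd1, Amotl1, Amotl2, Ajuba or Lats2. All 10 were found among 20647 genes. Cystic and dense organoids were compared, with 1 RNA-seq library each, both from male mice aged 10 weeks and both kept in PitOM medium. The cystic organoids were at passage 2 and came from a GHCre/iDTR mouse. The dense organoids were at passage 4 and came from a -/iDTR mouse. In such mice iDTR is a diphtheria toxin receptor gene that Cre recombinase switches on, and GHCre drives Cre in growth hormone cells. Whether toxin was given is not stated in the labels. Organoid type, passage and mouse differed together and cannot be told apart, and without replicates no test between the kinds was possible.

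In the Hippo pathway the kinases MST1 and MST2 activate LATS1 and LATS2, which phosphorylate YAP and TAZ and so keep them in the cytoplasm or mark them for breakdown. Unphosphorylated YAP and TAZ enter the nucleus and bind TEAD proteins, since they cannot bind DNA themselves. The pathway responds to cell density, cell shape and tension, and in mouse pituitary YAP and TAZ are found in SOX2-expressing stem cells. Among their best known targets are the secreted matrix-associated proteins CTGF and CYR61, the ankyrin repeat protein ANKRD1, and inhibitors of the pathway itself such as AMOTL2 and LATS2. The activity of YAP and TAZ is set largely by phosphorylation and location, which RNA levels do not show.

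TEAD proteins recognise the element GGAATG. The promoters of the members are shown because this element is the sequence link between the coactivators and their targets. RefSeq promoters (build GRCm38.p6, 250 bases before to 50 after an annotated start) matched 8 of the 10 members, with 10 starts in all. Tead1 and Ctgf had no entry. On either strand, GGAATG occurred in at least 1 promoter of 7 of the 8 members, against 16.6% of 27025 genes and 14.7% of 32851 promoters in the whole table. Ankrd1 and Ajuba, the members that leaned farthest to the cystic and to the dense library among these 8, each held 2 matches, and Cyr61 held 1. Their promoters read 5′ to 3′ along the gene, with GGAATG or its reverse complement CATTCC in capitals:
Ankrd1 (chr19:36119795-36120094, minus strand): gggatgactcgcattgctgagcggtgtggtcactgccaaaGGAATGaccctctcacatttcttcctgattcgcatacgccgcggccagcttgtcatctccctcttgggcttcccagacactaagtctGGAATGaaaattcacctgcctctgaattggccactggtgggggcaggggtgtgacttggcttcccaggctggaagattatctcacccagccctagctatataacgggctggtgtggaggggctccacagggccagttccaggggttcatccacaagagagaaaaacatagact
Ajuba (chr14:54577612-54577911, minus strand): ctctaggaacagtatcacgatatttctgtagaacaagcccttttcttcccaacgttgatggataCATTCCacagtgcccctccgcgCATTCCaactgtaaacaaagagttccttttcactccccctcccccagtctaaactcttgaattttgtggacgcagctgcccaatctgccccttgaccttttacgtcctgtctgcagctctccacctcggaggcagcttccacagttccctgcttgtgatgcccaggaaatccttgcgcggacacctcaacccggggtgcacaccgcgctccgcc
Cyr61 (chr3:145649936-145650235, minus strand): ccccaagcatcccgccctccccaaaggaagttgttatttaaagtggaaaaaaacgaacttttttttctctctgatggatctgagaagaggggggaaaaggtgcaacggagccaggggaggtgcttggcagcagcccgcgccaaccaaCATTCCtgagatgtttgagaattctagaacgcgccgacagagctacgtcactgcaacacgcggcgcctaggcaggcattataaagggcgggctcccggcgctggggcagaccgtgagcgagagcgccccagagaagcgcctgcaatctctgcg

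The remaining matches are shown in windows of 30 bases, again with the element in capitals:
Amotl2 (chr9:102717727-102717756, plus strand): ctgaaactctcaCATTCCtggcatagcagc
Lats2 (chr14:57746102-57746131, minus strand): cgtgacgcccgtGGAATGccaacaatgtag
Wwtr1 (chr3:57576029-57576058, minus strand): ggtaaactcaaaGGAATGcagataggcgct
Yap1 (chr9:8004720-8004749, minus strand): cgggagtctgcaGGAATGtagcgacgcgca

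The first bases of the matches lay between position -210 (Ankrd1) and position 5 (Lats2), counted from the annotated start as 1. The match of Amotl2 began at -65 and that of Cyr61 at -103, both on the opposite strand. Those of Ankrd1 began at -210 and -123 and those of Ajuba at -186 and -164. The coactivator genes themselves held the element too, Yap1 at -141 and Wwtr1 at -136 from its upstream start. Amotl1 held none in this window. Neither TGANTCA, the element of AP-1 factors, nor the CArG box of serum response factor was found in any of the 8 members, against 8.97% and 1.81% of all genes. A match is a string of letters and does not show binding, and these members differed between the libraries in either direction.

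**Figure D1:**
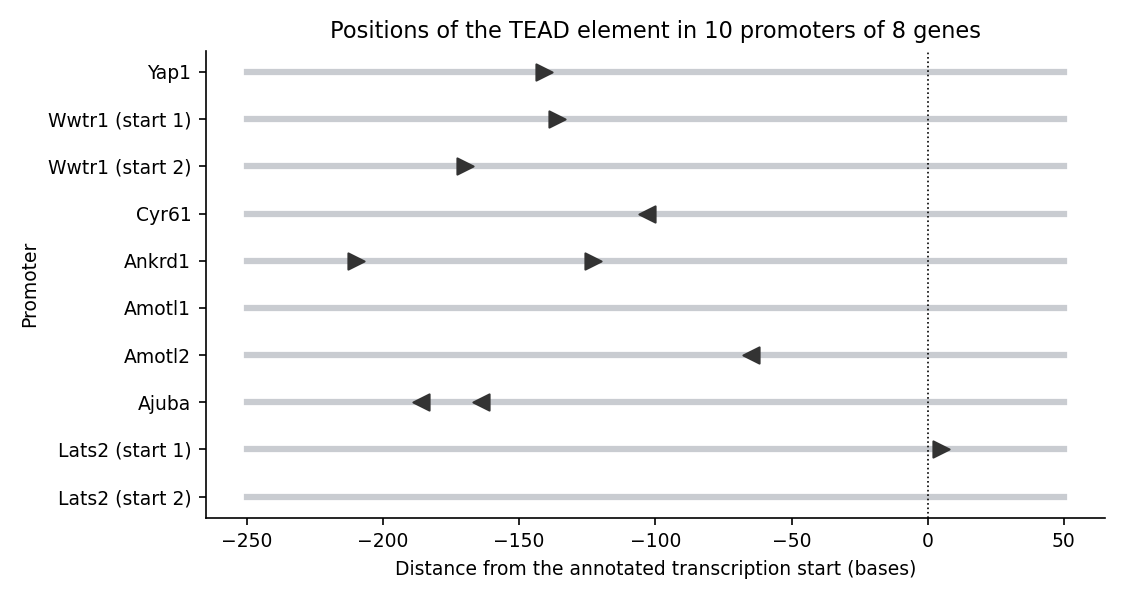
Distance in bases of each GGAATG match (triangles, pointing right for the gene's own strand and left for the opposite strand) from the annotated start (dotted line) in 10 promoters of 8 genes, each promoter a grey line. Matches lie from -210 to 5, and Amotl1 and the second start of Lats2 have none.

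The libraries held 17247431 reads (cystic) and 19258313 reads (dense). Values are the deposited normalized counts, read counts divided by a size factor per library, which makes 1 read worth 1.05 in cystic and 0.956 in dense organoids. Intervals in parentheses are exact 95% intervals for counting error alone; amplified reads are not independent molecules. Pituitary and epithelial markers were present in either library, among them Epcam, Cdh1, Sox2, Sox9 and Pitx1, whereas Lhx3 had 172 normalized counts in cystic organoids, and the dense library lacked reads of it. The 4 keratins of simple epithelium (Krt7, Krt8, Krt18, Krt19) summed to 69201 normalized counts in cystic against 1081 in dense organoids, and 4 genes of basal stratified epithelium (Krt5, Krt14, Krt15, Trp63) to 126 and 331668. The RNA is from whole organoids, so fewer cells of a type and less RNA per cell cannot be told apart. The part of this difference in cell markers in the results below was not tested.

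The coactivators and most feedback genes, like most genes past the filter below, differed by less than 2-fold between the 2 libraries. Ctgf and Ankrd1 were found almost entirely in the cystic one. A gene was called where the values, with 1 added to each, differed at least 4-fold (2 log2 units), among genes whose 2 values averaged at least 50 normalized counts. All 10 members passed that filter. Of them 2 were called higher in cystic organoids, 0 in dense organoids and 8 were not called. Of all 11279 genes past the filter, 15.5% were called, 7.86% higher in cystic and 7.65% higher in dense organoids, so the 20.0% of members called lies near the share of all genes. Without regard to size, 7 members leaned to cystic and 3 to dense organoids, and 6 of the 10 differed by less than 2-fold. The median log2 ratio of the members was 0.46, against -0.03 for all genes past the filter.

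**Figure D2:**
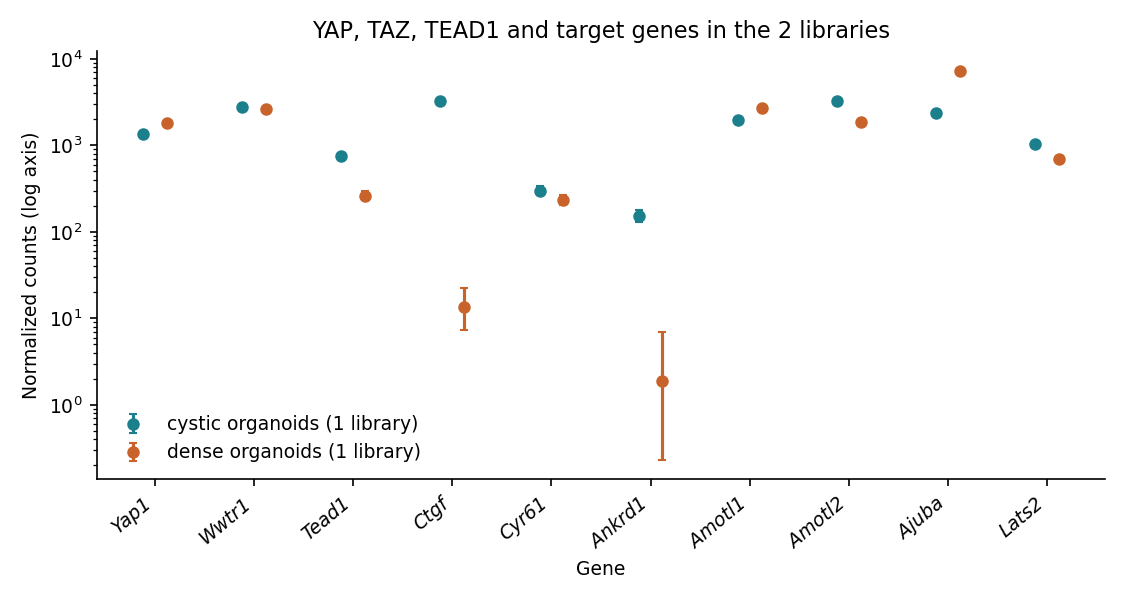
Normalized counts (log axis) of the 10 genes in the cystic (blue-green) and the dense (orange) library, 1 library each, with exact 95% Poisson intervals that cover counting error only. Ctgf stands at 3232 in cystic against 13.4 in dense organoids and Ankrd1 at 154 against 1.91, while Wwtr1 has 2747 and 2643.

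Wwtr1 stood at 2747 normalized counts for cystic (2643 to 2854) and at 2643 for dense organoids (2545 to 2743). These intervals overlap, and the interval of its ratio, 0.985 to 1.10, holds 1. It is the single member for which that was so. Yap1 had 1339 normalized counts in cystic against 1841 in dense organoids, a 1.38-fold lead of the dense library (1.28 to 1.48). Per length of exon, on the TPM scale, which gives each transcript's share of the library after division by length, Wwtr1 was the more abundant coactivator transcript, at 3.97 times the level of Yap1 in cystic and 2.78 times in dense organoids. Their summed per-length level was 136 TPM in either library. When the longest transcript served as gene length, the lead of Wwtr1 was 2.31 and 1.61 times. The sum was then 118 TPM in cystic and 127 TPM in dense organoids.

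Tead1, which encodes a DNA-binding partner of YAP and TAZ, had 749 normalized counts in cystic against 263 in dense organoids, 2.85-fold higher in cystic (2.48 to 3.29). Among the other TEAD genes only Tead4 leaned the same way, and by less. Tead3 was 1.48-fold higher in dense organoids (1.24 to 1.77), Tead4 1.62-fold higher in cystic organoids (1.13 to 2.35). Tead2 was low, with 12.6 and 26.8 normalized counts. Tead1 made up 49.3% of the summed per-length TEAD level of cystic and 22.6% of that of dense organoids, and Tead3 28.4% and 54.8%. The leading TEAD transcript thus differed, whereas the sum, 21.2 and 15.6 TPM, differed 1.36-fold. With the longest transcript as gene length the sums lay closer, at 23.6 and 19.8 TPM. Tead1 then made up 45.0% in cystic and 18.6% in dense organoids, and Tead3 37.1% and 64.5%. Among the VGLL cofactors, which bind TEAD proteins in place of YAP and TAZ, Vgll3 leaned 2.69-fold to dense organoids (2.03 to 3.59) and Vgll4 had 882 and 797 normalized counts. Of the 10 listed coactivator, TEAD and VGLL genes, 7 passed the filter and 0 were called in either direction, against 15.5% of all genes, with a median log2 ratio of 0.06.

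Ctgf, which encodes a secreted matrix-associated growth regulator, had 3232 normalized counts in cystic organoids (3119 to 3348) against 13.4 in dense organoids (7.32 to 22.5). The difference was 241-fold (144 to 442), and Ctgf ranked 131 of 11279 genes by ratio in favour of that library. Cyr61, the closest relative of Ctgf among the members and often switched on with it, had 301 normalized counts in cystic (267 to 338) against 235 in dense organoids (207 to 266), a 1.28-fold difference (1.08 to 1.52). The pair therefore changed places: per length, Ctgf stood at 7.57 times the level of Cyr61 in cystic organoids, and Cyr61 at 24.9 times the level of Ctgf in dense organoids. The CCN family to which they belong had little else, with Nov, Wisp1 and Wisp2 at 13.4 normalized counts or less in either library. Of its summed per-length level Ctgf took 88.2% in cystic and Cyr61 90.9% in dense organoids.

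Ankrd1, which encodes a muscle and stress-induced ankyrin repeat protein, had 154 normalized counts in cystic organoids (130 to 181) and 1.91, from 2 reads, in dense organoids (0.232 to 6.91). The ratio was 80.4 with a wide interval (21.9 to 670). Ankrd1 lies close to the filter, and its log2 ratio of 5.73 became 1.97 after a pseudocount of 50, just under the call; a filter at a mean of 200 leaves it out. Its muscle relative Ankrd2 had 1 read in all. Ankrd23 had 22.0 and 11.5 normalized counts.

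**Figure D3:**
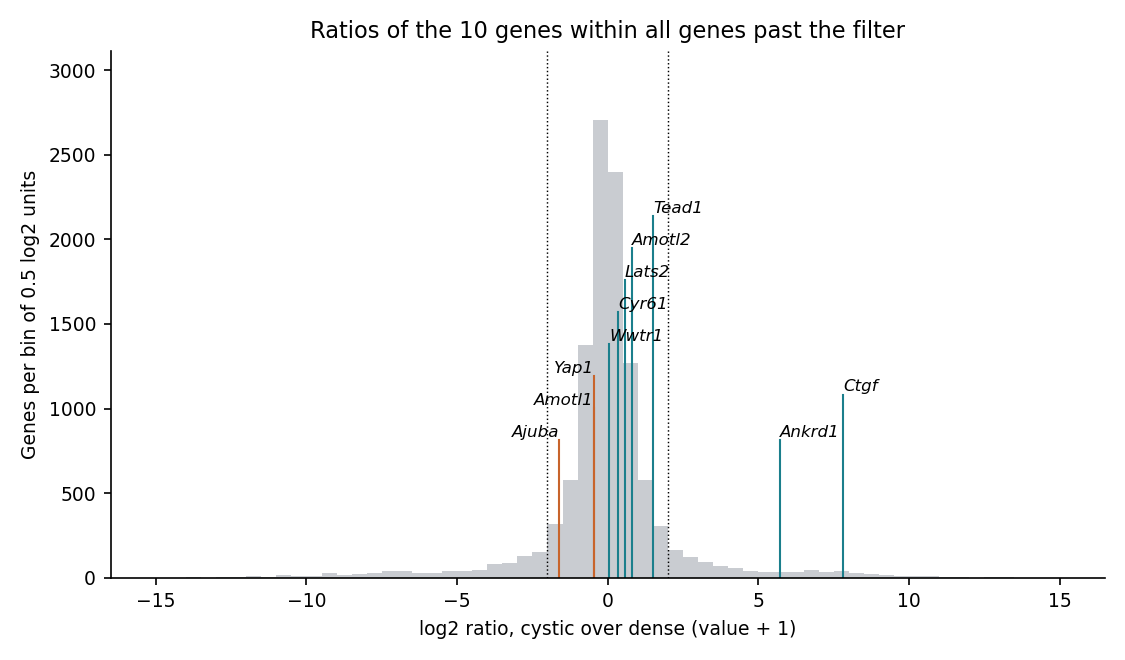
Histogram of log2 ratios (cystic over dense, 1 added to each value) of 11279 genes past the filter in bins of 0.5, with the 10 genes drawn as lines (blue-green higher in cystic, orange higher in dense) and dotted lines at the 4-fold call. Ctgf at 7.81 and Ankrd1 at 5.73 lie in the right tail, and the other 8 genes lie between the dotted lines.

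Since Ctgf and Ankrd1 are also strongly expressed in mesenchyme and muscle, markers of those cells are given beside them. All 8 fibroblast and mesenchyme markers had reads in the cystic library, with a sum of 141 normalized counts, against 14.3 in the dense library, where Vim, Pdgfra and Pdgfrb were at 0. Col3a1 led them with 70.1 in cystic organoids, and Col1a1 and Col1a2 had 5.23 each. The 7 analysed muscle markers summed to 192 in cystic and 51.6 in dense organoids. Acta1 had 97.3 against 0.956, Acta2 46.03 and Des 42.9 against no read, while Tnnt2 had 1.05 against 44.9; 1 muscle marker (Myh7) was at 0 in cystic and 4 in dense organoids. The 2 analysed endothelial markers, Kdr and Pecam1, summed to 23.02 in cystic and 4.78 in dense organoids, with Kdr at 0 in the latter. The 3 analysed leukocyte markers summed to 422 and 3123. The lysosomal gene Cd68 (373 and 3123) made up most of this in cystic and all of it in dense organoids. Its log2 ratio of -3.06 lay past the 4-fold call in favour of dense organoids. Ptprc and Aif1 had 1.05 and 47.1 in cystic organoids and were at 0 in dense organoids. Their part in either difference was not tested.

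The angiomotins AMOTL1 and AMOTL2 bind YAP and hold it at junctions and the actin cytoskeleton. Amotl2, itself a target of YAP and TAZ, had 3225 normalized counts in cystic against 1859 in dense organoids, 1.73-fold higher in cystic (1.64 to 1.84). Amotl1 had 1954 and 2707, 1.39-fold higher in dense organoids (1.31 to 1.47). The remaining angiomotin gene, Amot, a paralog of these members, differed far more, with 1859 against 83.2 normalized counts (22.4-fold higher in cystic, 18.02 to 28.1). Amotl2 was the leading angiomotin transcript per length in either library, at 55.2% and 51.5% of the family. Amot held 23.8% of it in cystic and 1.72% in dense organoids.

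Ajuba encodes a LIM-domain protein that binds LATS kinases at junctions and restrains them. It was the member that leaned farthest to the dense library, with 2379 normalized counts in cystic against 7243 in dense organoids, a 3.04-fold lead of the dense library (2.90 to 3.19), below the call. Its relative Wtip was 2.25-fold higher in dense organoids as well (2.04 to 2.49), and Limd1 had 2501 and 2229 normalized counts. Ajuba was the most abundant member per length in dense organoids, at 360 TPM.

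Lats2, the kinase gene that YAP and TAZ induce, had 1033 normalized counts in cystic against 699.7 in dense organoids, 1.48-fold higher in cystic (1.34 to 1.63). Its paralog Lats1 leaned the other way, 1.34-fold higher in dense organoids (1.24 to 1.44), and the summed per-length level of the pair was 62.2 TPM in cystic and 62.03 TPM in dense organoids. Lats1 was 2.41 times as abundant as Lats2 per length in dense organoids. In cystic organoids the order depended on the length used, at 1.22 times with the union of exons and 0.920 times with the longest transcript.

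Ordered by level per union of exons in cystic organoids, Ctgf stood first at 214 TPM, followed by Ajuba (123 TPM), Wwtr1 (109 TPM), Amotl2 (96.95 TPM) and Amotl1 (36.7 TPM), each apart from the next beyond counting error. Cyr61, Lats2 and Yap1, at 28.2, 28.003 and 27.3 TPM, did not differ beyond it, nor did Tead1 and Ankrd1 at 10.4 and 10.07 TPM. In dense organoids the order was Ajuba, Wwtr1, Amotl2, Amotl1, Yap1, Cyr61, Lats2, Tead1, Ctgf and Ankrd1. Cyr61 and Lats2, at 21.1 and 18.2 TPM, were the neighbours whose intervals overlapped there. Ctgf went from the percentile 96.4 of all genes by per-length level in cystic organoids to percentile 35.4 in dense organoids, and Ankrd1 from 58.9 to 17.7, whereas Wwtr1 stood at 91.9 and 90.9. Part of the order rested on the length used. With the longest transcript, Amotl2 (103 TPM) stood above Ajuba (98.8 TPM) and Wwtr1 (82.5 TPM) in cystic organoids, and Yap1, Lats2 and Cyr61 were spread over 35.8, 28.1 and 21.04 TPM, with Amotl1 at 30.8 TPM. In dense organoids Yap1 (48.7 TPM) then stood above Amotl1 (42.2 TPM) and Lats2 (18.8 TPM) above Cyr61 (16.3 TPM). Ctgf led in cystic and Ajuba in dense organoids with either length.

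**Figure D4:**
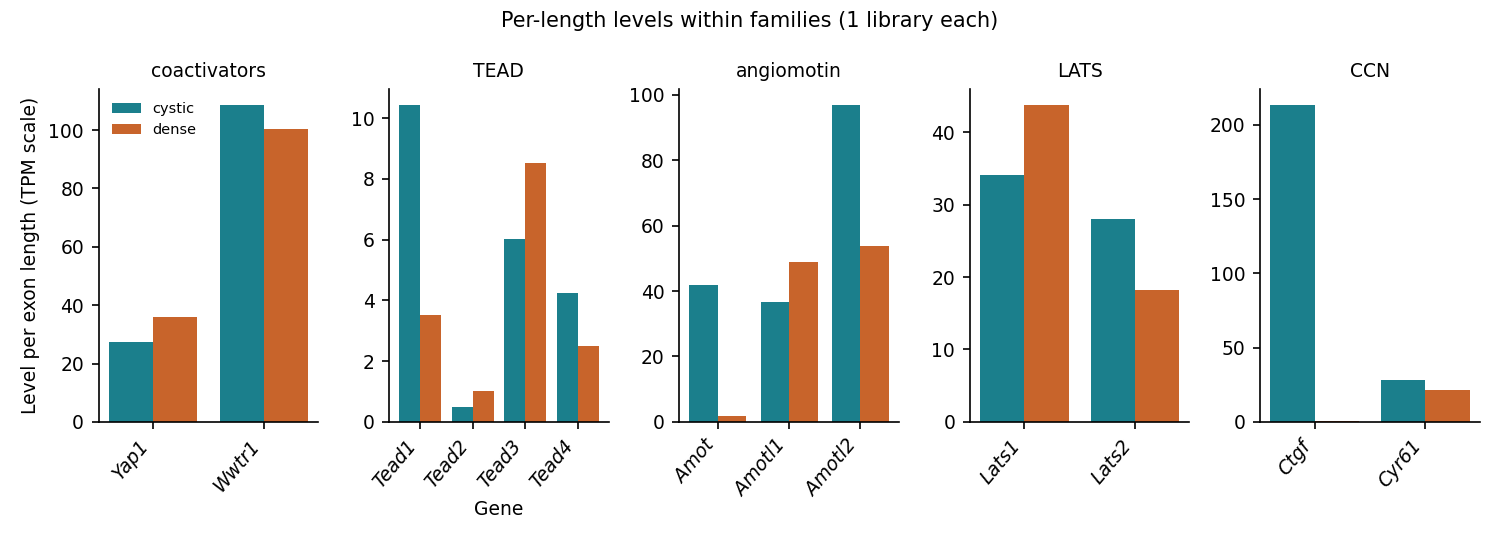
Levels per union of exons (TPM scale, axes starting at 0 and differing between panels) in the cystic (blue-green) and dense (orange) library, 1 library each. Shown are the coactivator, TEAD, angiomotin, LATS and CCN genes. Ajuba, Ankrd1, Nov, Wisp1 and Wisp2 are not drawn. With this length Yap1 and Wwtr1 sum to 136 TPM in either library and Lats1 and Lats2 to 62.2 and 62.03 TPM. Tead1, Amot and Ctgf are higher in the cystic library.

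Upstream of YAP and TAZ, Wwc1, the KIBRA gene, was the 1 gene past the call. Of 18 listed kinases and cofactors of the core pathway, 15 passed the filter, 1 (6.67%, against 15.5% of all genes) was called higher in cystic and 0 in dense organoids, and the median log2 ratio was -0.01. Wwc1, whose product is a scaffold that activates LATS kinases, had 7425 against 1565 normalized counts (4.74-fold, 4.50 to 5.01). Frmd6, Map4k4 and Mob1a leaned to the dense library, at 3.39-fold (3.17 to 3.63), 3.04-fold (2.71 to 3.41) and 2.43-fold (2.33 to 2.55). They encode a FERM-domain protein at the membrane, a kinase acting beside MST1 and MST2, and an activator of LATS kinases. The MST genes Stk3 and Stk4 leaned in opposite directions, 1.55-fold to cystic and 1.55-fold to dense organoids. Of the 12 listed genes of proteins that bind or modify YAP and TAZ or, as Ajuba and its relatives do, bind LATS kinases, all passed the filter. Amot was the 1 called (8.33%), and the median log2 ratio was -0.05. The 14-3-3 genes Ywhaz and Ywhae, whose products hold phosphorylated YAP in the cytoplasm, leaned 1.25-fold and 1.05-fold to dense organoids.

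A wider signature of 22 YAP and TAZ target genes did not lean to either library. Of its 20 genes past the filter, 3 were called higher in cystic organoids, 4 higher in dense organoids and 13 were not called. At any size 10 were higher in each library, and the median log2 ratio was 0.15, which became -0.060 with genes of a mean of at least 200. The share called was 35.0%, against the 15.5% of all genes. Of the signature 5 genes are members, and the calls in favour of cystic organoids were Ctgf, Ankrd1 and Tgfb2, a TGF-beta ligand gene at 5.70-fold (4.10 to 8.10). Without the members, 15 genes remained, 1 called higher in cystic and 4 in dense organoids, with a median of -0.63. This split depends on the filter. Rbms3, a signature gene just below it, had 87.9 normalized counts in cystic organoids and 0 in dense organoids. That is at least 30.6-fold higher in cystic against a floor of 3 reads. With genes of a mean of at least 10, 4 genes of the whole signature were called higher in each library.

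Among the targets called higher in dense organoids, Nt5e had a ratio whose counting interval overlaps that of Ctgf (144 to 442), so their order is not settled. Nt5e, which encodes the surface enzyme CD73 that makes adenosine, had 1804 normalized counts in dense organoids and 2.09, from 2 reads, in cystic organoids, a ratio of 862 (238 to 7124). Foxf2, a forkhead factor gene, had 102 in dense organoids and none in the cystic library, which makes it at least 32.6-fold higher against a floor of 3 reads in that library. Foxf2 lies just above the filter, which it passed through its dense value alone. Fjx1 was 12.4-fold higher in dense organoids (8.84 to 17.9). Axl, a receptor tyrosine kinase gene picked once its value was known, was 4.46-fold higher there, with an interval that reaches below 4-fold (3.85 to 5.18). Nuak2 and Myof, the signature genes with the highest mean normalized counts without regard to length, differed 1.61-fold in favour of cystic (1.55 to 1.68) and 1.26-fold in favour of dense organoids (1.21 to 1.323).

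**Figure D5:**
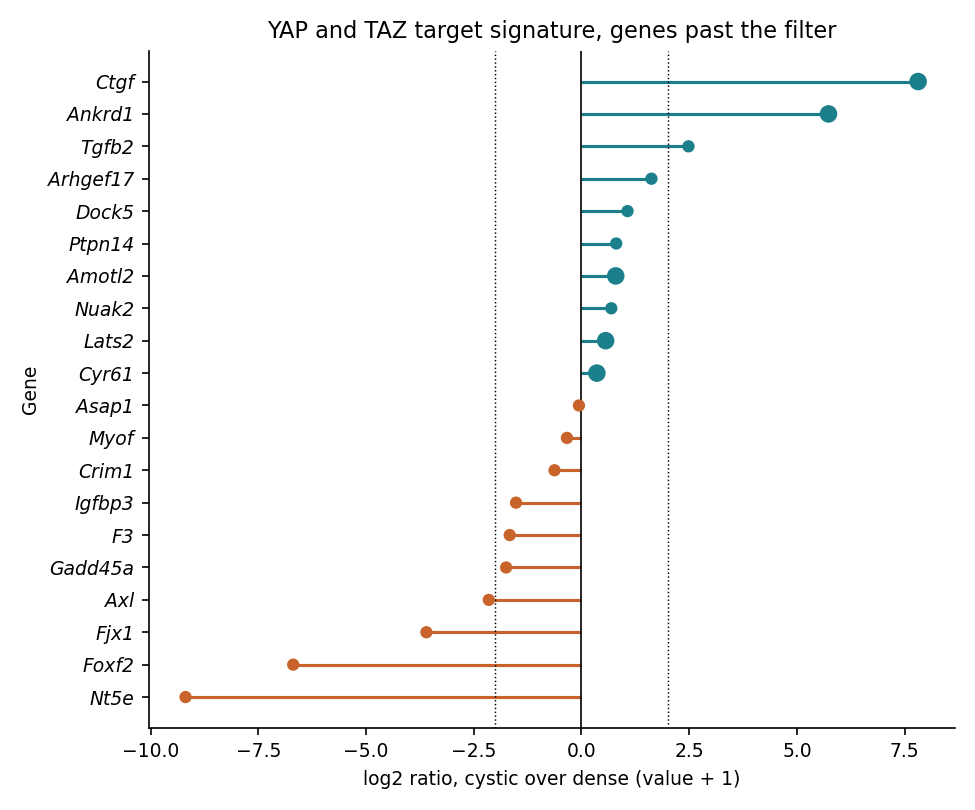
Log2 ratio (cystic over dense, 1 added to each value) of 20 signature genes past the filter, large points for the 5 that are among the 10 members, with dotted lines at the 4-fold call. Ratios run from -9.19 for Nt5e to 7.81 for Ctgf, with 10 genes on each side of 0.

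Serum response factor and its MRTF partners, which respond to actin, share targets with YAP and TAZ. Of 12 listed targets 7 passed the filter, and the median log2 ratio was -1.49. Of these 0 were called higher in cystic organoids, against 7.86% of all genes. In dense organoids 3 (42.9%) were called higher, against 7.65% of all genes. Those called were the LIM protein gene Fhl2 (16.5-fold, 12.6 to 22.1), the tropomyosin gene Tpm2 (15.7-fold, 13.99 to 17.7) and the calponin gene Cnn2 (4.03-fold, 3.67 to 4.43). Cnn2 lay at the edge of the call and lost it under each of the 3 other scalings and under pseudocounts of 10 and 50, which left 2 genes called. Egr1 leaned 2.81-fold to dense organoids (2.71 to 2.92), and Srf 1.50-fold to cystic organoids (1.37 to 1.64). The list thus leaned away from the library in which Ctgf and Ankrd1 were high, although of its contractile genes below the filter, Acta2 and Myl9 had reads in that library alone. Tagln, also below it, had 2.09 normalized counts in cystic against 12.4 in dense organoids. With genes of a mean of at least 10 taken in, 2 of the list were called higher in cystic organoids and the median was -0.32.

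Some members share exons with other genes in GENCODE M21, an annotation of a build other than the one the submitters name. Ctgf overlaps a gene on the opposite strand, Gm15270, over 665 bases or 23.2% of its exons, but that gene had 5.23 normalized counts in cystic organoids and 0 in the others. Lats2 shares 42.4% of its exon length with the same-strand gene Gm49361, which was not analysed here, so the level of Lats2 is uncertain where reads could be split. Yap1 overlaps Gm20416 over 1.25% of its exons.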

How the data were processed

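RNA-seq was carried out on 2 libraries, 1 per kind of organoid. Per the labels' protocols, RNA was amplified with Smart-seq v4, a full-length method, before library preparation. The submitters' processing notes name TopHat, DESeq 1.32.0 and mm9, without their roles. How reads were counted, on which annotation and whether by strand is not given in the sources used here. The authors deposited a normalized read signal per gene (normalized counts). Divided by the lowest value above 0 in its column, 100% of values were whole within 0.001, so the deposited signal is a whole read count over a size factor, and reads were recovered. The 2 ERCC rows were left out. With 1 library per group there was no count test and no p-value.

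Ratios are log2 of cystic over dense after adding 1, called at 4-fold where the mean reached 50. Folds are of normalized counts without a pseudocount, with exact Clopper-Pearson intervals; levels have exact Poisson intervals, both at 95% for counting error only. A library at 0 was taken to allow 3 reads, 3.14 normalized counts in cystic against 2.87 in dense organoids. Per-length levels (TPM scale) divide by the union of exons in GENCODE M21, which 99.7% of genes matched by identifier. Calculations used Python 3.11.15, scipy 1.17.1 and edgeR 4.0.16 (trimmed mean of M-values), and were tested on simulated data.

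The members and gene lists were chosen with earlier results of these data known. The rule for naming covers all members, all markers (some given here through their list's sum alone), genes of a list at 0 in a library, and from each list up to 6 genes past the filter with the largest ratio and the 2 with the highest mean. Paralogs of members outside this rule (Lats1, Limd1, Tead2, Ankrd23, the CCN relatives), Axl and Tagln were named after their values were seen, and the TGANTCA and CArG searches were added then. With 2 libraries a pattern is 1 ratio, so no genes were named for a like pattern. A listed marker gene is not reported here. The alternatives tried were other pseudocounts, filters, thresholds, scalings and gene lengths, and the mean in place of the median.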

Additional observations from a re-analysis of the deposited data

How the results depend on the processing

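Over 284 values recomputed under alternative settings, 240 stayed within set limits and 44 moved. The limits were counting intervals for ratios and levels, and 1.5 times for counts. For medians they were the medians of the genes' interval limits, which are not a counting interval of a median. Some values could hardly move, such as ratios of genes with many reads under another pseudocount. A reversed direction was looked for only in the ratios of the called members, Ctgf and Ankrd1. These ratios are too large for such settings to reverse, so finding none tells nothing. Under 3 other scalings and 4 pseudocounts in all, the median of all genes moved by less than 0.1 (log2). The 3 scalings moved every member slightly toward cystic organoids, and no member changed direction. A pseudocount added to both values cannot change the direction of a ratio, so those settings could not test it. With a pseudocount of 50, 1 member was called higher in cystic organoids, Ctgf, and the signature had 1 call for cystic and 2 for dense. Of all 11279 genes, 639 were then called for cystic and 664 for dense. Requiring a mean of at least 200 also left 1 member and 1 signature gene called for cystic, and the signature median was -0.060. Among all 9251 genes past that filter, 561 were called for cystic and 606 for dense. With a mean of at least 10 the medians were 0.36 for the signature, -0.20 for coactivators, TEAD and VGLL genes and -0.32 for SRF and MRTF targets, 2 of which were then called for cystic. With no filter these medians were 0.46, -0.20 and -0.32, with 5 signature genes and 3 SRF and MRTF targets called for cystic. Of all genes, 1441 of 13640 at a mean of 10 and 2681 of 20647 without a filter were called for cystic. For dense organoids they were 1210 and 1939. With a 2-fold call, 1 member (Ajuba), 3 upstream genes and 2 binding-protein genes (Ajuba again and Wtip) were higher in dense organoids. So were 1 of the coactivator, TEAD and VGLL genes and 7 signature genes. Higher in cystic organoids were 3 members, 1 upstream gene and 1 binding-protein gene. So were 1 of the coactivator, TEAD and VGLL genes and 5 signature genes. Of all 11279 genes, 1761 were called for dense and 1767 for cystic organoids at 2-fold. With an 8-fold call 0 upstream genes were called for cystic, against 600 of all 11279 genes. Means in place of medians were 1.43 for the members, 0.22 for binding-protein genes, -0.28 for the signature and -1.59 for SRF and MRTF targets, so 2 of them differ in sign from the median. Where settings differ in which genes pass, the lists themselves differ; otherwise the cause was not tested. When the whole counting interval had to lie beyond 4-fold, an alternative chosen after seeing the data, Ctgf and Ankrd1 remained called, while Axl and Cnn2 did not, leaving 3 signature genes and 2 SRF and MRTF targets higher in dense organoids. No paired analysis was possible because each group has 1 library. Depth limits Ankrd1 and Nt5e, each resting on 2 reads in the lower library, and Foxf2, with 0.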
